A study of Homo sapiens with 12 samples.

Results

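XBP1 and 9 endoplasmic reticulum (ER) chaperones and quality control factors were followed across 4 groups of a human mammary epithelial line measured on 12 Illumina bead arrays. The genes were XBP1, HSPA5, HSP90B1, PDIA4, PDIA6, CALR, DNAJB9, DNAJC3, HERPUD1 and SEL1L, and every probe whose gene symbol in the platform annotation was one of these was taken. The table of 47224 probes held 10 such probes, for 9 of the 10 genes, of 20045 genes named in all. XBP1 had 2 probes and the others 1 each, while HERPUD1 was not analysed here. The SEL1L probe was not detected on any array, so 9 probes of 8 genes were among the 19777 tested, which were those detected (detection p under 0.05) on at least 3 arrays.

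The cells were MCF10A, a non-tumorigenic mammary epithelial line, and the groups are titled Cas/ErbB2, ErbB2, Cas and Ctr MCF10A.B2, with 3 arrays each. The labels describe all 4 groups, the control included, as modified MCF10A cells. ErbB2 is a receptor tyrosine kinase and p130Cas a focal adhesion adaptor. The labels do not say how either was raised or activated, nor which sequences the MCF10A.B2 cells hold. The array names mark Cas/ErbB2 with C+, ErbB2 with M+, Cas with C- and the control with M-; these marks are not explained there. The series title speaks of a p130Cas and ErbB2 dependent invasive signature, and the comparisons ask which levels went with both factors, with either alone, and with both beyond either.

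Proteins that enter the ER are folded with the help of chaperones, and unfolded protein sets off the unfolded protein response. In that response the sensor IRE1 splices the XBP1 transcript, ATF6 is cleaved to a transcription factor, and PERK slows translation and raises ATF4. Spliced XBP1 and ATF6 are known to raise chaperones, co-chaperones and factors that send misfolded protein to the proteasome. In mammary epithelium XBP1 is known for its part in the secretory capacity of lactating cells.

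Many genes of the response carry the ER stress response element near their start, which reads CCAAT, then 9 bases of any kind, then CCACG. It was searched on both strands in RefSeq promoter windows (GRCh38.p14, 250 bases before to 50 after each start), which covered all 10 genes. The element was found for 5 of the 10 genes. Of all 35116 windows 27 held it (0.0769%), those of 25 genes, and a gene can have more than 1 window. Since the element is known from genes of this response, its presence here is a description and not a test. The 6 matches are listed for reference, and their part in the levels below was not tested. They are written in the direction of the element, with the fixed letters in capitals.
XBP1: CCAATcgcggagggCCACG
HSPA5: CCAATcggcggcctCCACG
HSP90B1, first: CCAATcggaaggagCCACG
HSP90B1, second: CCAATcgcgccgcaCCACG
PDIA6: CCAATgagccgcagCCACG
CALR: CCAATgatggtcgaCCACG
The matches of XBP1, HSPA5 and PDIA6 and the first of HSP90B1 lie on the strand of the gene. The second of HSP90B1 and that of CALR lie on the other strand. DNAJB9, DNAJC3, PDIA4 and SEL1L held no match in these windows. The related element ATTGG, any base, then CCACG occurred in the window of 1 of the 10 genes, HERPUD1. It occurred in 0.0541% of all windows, those of 19 genes. The letters TGACGTGG occurred in 0.729% of all windows and in 0 of the 10 genes. A match describes the letters of the window and not binding.

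Windows of 4 genes are shown whole as a description, with the letters of the element in capitals where it occurs. The levels reported below do not rest on them. DNAJB9 held no match, and a further window of XBP1 without a match is not shown. XBP1 is on the minus strand (chr22:28800520-28800819), as is HSPA5 (chr9:125241294-125241593), while CALR (chr19:12938359-12938658) and DNAJB9 (chr7:108569624-108569923) are on the plus strand. Each is written 5′ to 3′ on the strand of the gene.
XBP1: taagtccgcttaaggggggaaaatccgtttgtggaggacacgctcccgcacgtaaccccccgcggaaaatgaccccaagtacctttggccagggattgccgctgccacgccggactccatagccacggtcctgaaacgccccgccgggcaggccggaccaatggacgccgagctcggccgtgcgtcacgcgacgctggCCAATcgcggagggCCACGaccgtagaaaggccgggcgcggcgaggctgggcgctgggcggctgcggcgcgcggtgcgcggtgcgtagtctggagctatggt
HSPA5: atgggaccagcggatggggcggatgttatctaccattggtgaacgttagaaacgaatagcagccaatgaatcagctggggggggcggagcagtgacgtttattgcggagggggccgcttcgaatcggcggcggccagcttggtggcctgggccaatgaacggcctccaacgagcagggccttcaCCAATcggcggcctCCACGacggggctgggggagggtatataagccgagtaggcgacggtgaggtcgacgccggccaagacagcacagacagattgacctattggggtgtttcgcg
CALR: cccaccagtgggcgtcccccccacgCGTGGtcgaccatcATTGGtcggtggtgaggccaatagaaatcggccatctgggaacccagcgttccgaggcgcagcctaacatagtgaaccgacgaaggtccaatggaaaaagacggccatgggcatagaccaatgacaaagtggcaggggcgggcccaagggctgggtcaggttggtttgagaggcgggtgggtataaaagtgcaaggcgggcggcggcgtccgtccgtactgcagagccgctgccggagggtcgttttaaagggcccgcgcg
DNAJB9: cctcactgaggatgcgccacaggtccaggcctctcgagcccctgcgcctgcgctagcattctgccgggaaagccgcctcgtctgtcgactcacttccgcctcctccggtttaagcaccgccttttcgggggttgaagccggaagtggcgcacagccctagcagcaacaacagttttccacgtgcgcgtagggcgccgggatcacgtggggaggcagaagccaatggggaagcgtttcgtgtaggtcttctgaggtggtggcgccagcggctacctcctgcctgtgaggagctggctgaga
Besides these members, 20 genes held the element in a window, and 8 of them were measured. In Cas/ErbB2 cells against the control 1 of the 8 was higher and 1 lower with quantile normalization, where 17.5% of all 11205 genes measured were higher and 29.5% lower. The median log2 difference of the 8 was 0.14, against -0.10 over all genes. Named after their values were seen, the higher was the ER lectin chaperone CANX (log2 0.50) and the lower the zinc finger gene ZNF17 (log2 -1.33).

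The median raw signal was 547 to 623 on Cas/ErbB2, 477 to 577 on ErbB2 and 510 to 614 on Cas arrays, against 171 to 202 on control arrays. On Cas/ErbB2 arrays 12864 to 15984 probes were detected, against 19076 to 19416 on control arrays. Control replicates 1 and 2 carry a hybridization number III in their names, replicate 3 carries II and the other 9 arrays carry none, so hybridization and control cannot be told apart. Cas/ErbB2 replicate 3 had the highest median signal and stood apart from its replicates, with Pearson's r across probes of 0.963 to 0.982 in that group and 0.983 to 0.992 in the others. All 9 mammary epithelial markers with a named probe, among them KRT5, KRT14 and CDH1, were detected on all 12 arrays. Of 7 fibroblast markers 1 to 3 were detected per array, with a summed signal of 975 to 1250 in Cas/ErbB2, 1213 to 1809 in ErbB2, 1841 to 2150 in Cas and 2826 to 3583 in control cells. DCN was detected on 12 arrays, COL1A1 on 11 and COL1A2 and LUM on 3 each, while COL3A1, PDGFRA and PDGFRB were detected on 0 arrays, as were PTPRC and CD3E of leukocytes and CDH5, VWF and KDR of endothelium, while CD14 and PECAM1 were detected on all 12. The part of this signal in the results was not tested. The ERBB2 probe read 9.09 ± 0.29 in Cas/ErbB2, 9.90 ± 0.13 in ErbB2, 10.13 ± 0.26 in Cas and 10.26 ± 0.13 in control cells (log2, SD, n = 3), with calls in Cas/ErbB2 against control (log2 -1.17, adjusted p = 1.97e-04), Cas (log2 -1.04, adjusted p = 0.00211) and ErbB2 cells (log2 -0.80, adjusted p = 0.0335). The probe of BCAR1, the gene of p130Cas, read 9.15 ± 0.19, 9.30 ± 0.49 and 9.33 ± 0.23 in Cas/ErbB2, ErbB2 and Cas cells and 9.64 ± 0.36 in control cells, with no call. Since the sequence brought into the cells and the bases these probes read are unknown here, they do not check the labels.

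Levels are log2 normalized signals, and differences are between group means with the standard error (SE) of the limma fit. Adjusted p is Benjamini-Hochberg over all 19777 probes within a comparison, and a call is an adjusted p under 0.05. Separate cultures are not named in the labels, so p reflects only how far these samples spread, and that spread may be technical. An exact permutation test of 3 against 3 arrays cannot go below 0.1. All directions against control hold under quantile normalization, which sets every array to 1 distribution. Scaled instead on the median of all probes, most of which lie at background, the median of the tested probes shifted to -1.62 in Cas/ErbB2, -1.46 in ErbB2 and -1.67 in Cas cells against control. On that scale 0 member probes were higher than in control cells, and 6, 6 and 8 were lower in Cas/ErbB2, ErbB2 and Cas cells. Scaled on the median of probes detected on all 12 arrays, the shift was 0.27, 0.21 and 0.20. Which scale holds for the control arrays was not tested. Levels of different probes are not comparable, and in bulk RNA fewer cells of a type cannot be told apart from less RNA per cell.

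XBP1, the transcription factor of the IRE1 branch, followed a graded order with Cas/ErbB2 highest, then ErbB2, then Cas, then control. The probe ILMN_2365465 read 12.95, 13.16 and 12.95 in Cas/ErbB2 cells. It read 11.94, 12.11 and 12.28 in ErbB2 cells and 11.27, 11.70 and 11.21 in Cas cells. Control cells gave 10.82, 10.88 and 10.86. No value of any group lay within the range of another group. The probe ILMN_1809433 read 12.83, 12.81 and 12.84 in Cas/ErbB2 cells. It read 12.10, 11.96 and 12.05 in ErbB2 cells, 11.41, 11.53 and 11.38 in Cas cells, and 11.07, 10.87 and 10.88 in control cells. Here too the 4 groups kept apart from each other. The positions of the probes on the transcript were not at hand, so spliced and unspliced forms cannot be told apart.

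**Figure D1:**
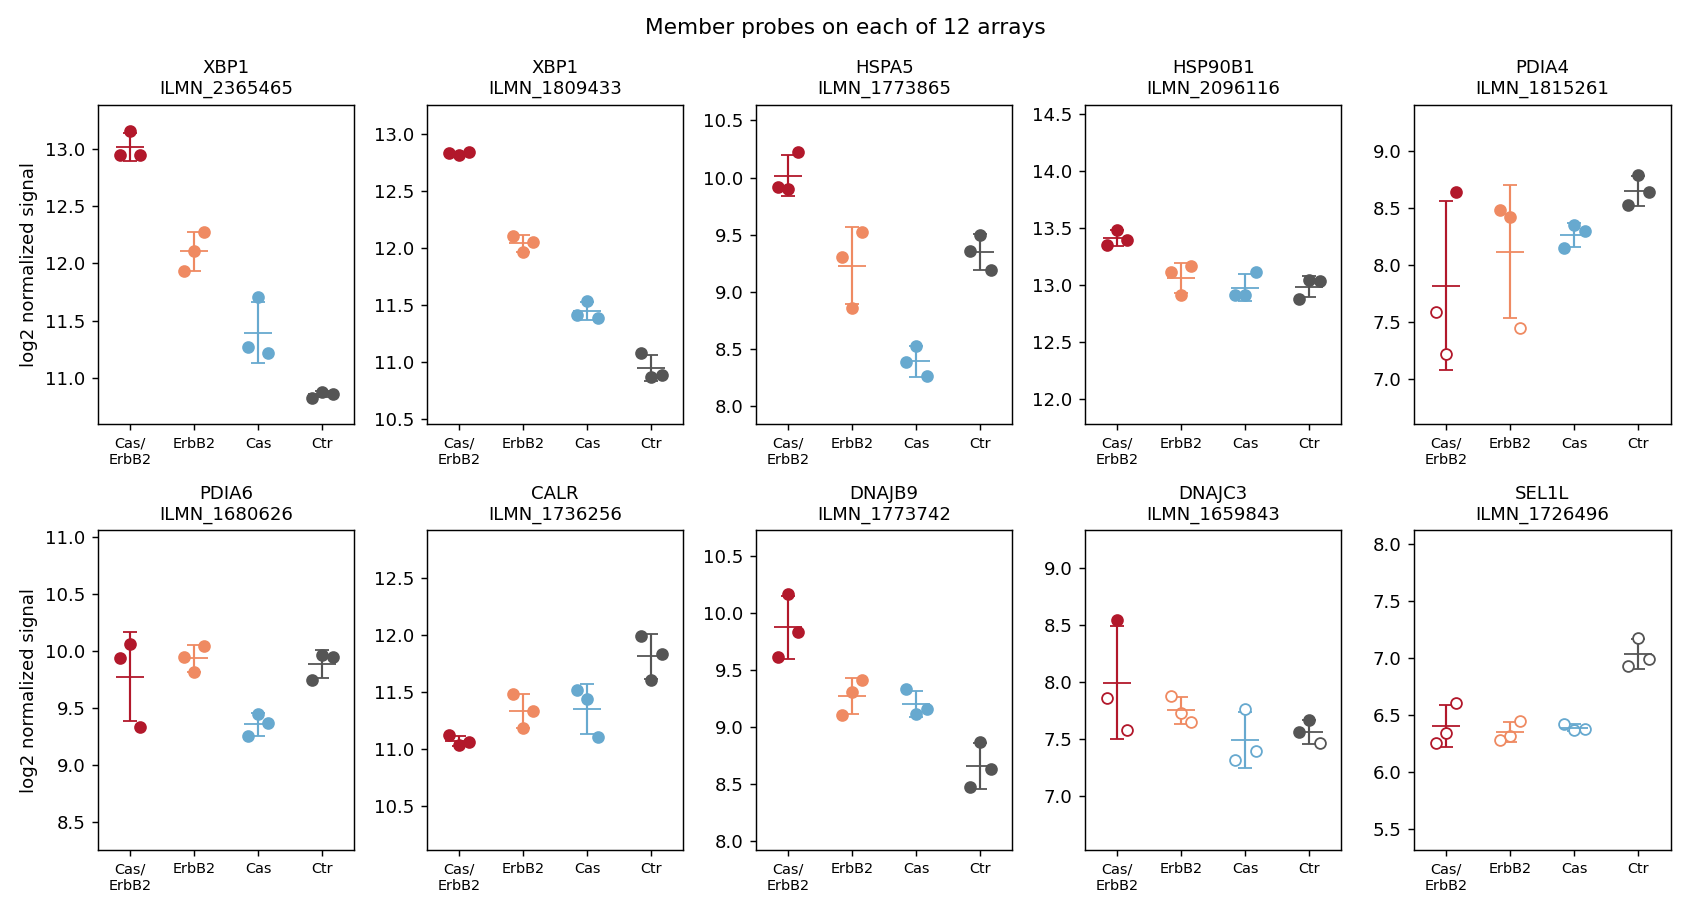
Log2 signal, quantile normalized, of the 10 member probes on each array, with 1 panel per probe and the groups Cas/ErbB2, ErbB2, Cas and Ctr MCF10A.B2 from left to right. Points are arrays (open where not detected), lines the mean and SD of 3 arrays, and every panel spans the same number of log2 units; both XBP1 probes step down from 13.02 and 12.83 in Cas/ErbB2 to 10.85 and 10.94 in control cells, while SEL1L is open on every array.

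XBP1 was 4.50-fold higher in Cas/ErbB2 than in control cells by ILMN_2365465 (log2 2.17 ± 0.15, SE, adjusted p = 9.19e-07) and 3.69-fold higher by ILMN_1809433 (log2 1.88 ± 0.11, adjusted p = 3.97e-07). Of all tested probes 0.384% and 0.622% had a higher difference in this comparison. Scaled on the median of all probes the differences were 0.33 and 0.05 and did not pass (adjusted p = 0.238 and 0.869), or 1.95 and 1.66 above the shifted median. In ErbB2 against control cells the differences were 1.26 ± 0.15 and 1.10 ± 0.11, and in Cas against control cells 0.54 ± 0.15 and 0.50 ± 0.11, all of them calls, but all below 0 when scaled on the median of all probes (-0.37, -0.52, -1.32 and -1.37). Without Cas replicate 2 or control replicate 1 the Cas difference of ILMN_2365465 missed the threshold (log2 0.39 and 0.53, adjusted p = 0.0732 and 0.0507), while that of ILMN_1809433 remained a call.

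Cas/ErbB2 cells also exceeded both single groups in XBP1. Against ErbB2 cells the differences were 0.91 ± 0.15 (adjusted p = 0.00802) and 0.79 ± 0.11 (adjusted p = 0.00413), and they were calls with each array left out in turn. Fitted on 9 arrays, control left out, they were 0.91 and 0.79 with adjusted p = 0.0358 and 0.0185, and in a fit of these 6 arrays alone the calls were lost (0.0848 and 0.0846), as they were when scaled on the median of all probes (log2 0.70 and 0.57, adjusted p = 0.508 and 0.628). Against Cas cells XBP1 was 3.09-fold and 2.61-fold higher (log2 1.63 ± 0.15 and 1.38 ± 0.11, adjusted p = 2.77e-05 and 1.02e-05), and both remained calls under every alternative run, that scaling included. ErbB2 cells exceeded Cas cells by 0.71 ± 0.15 (adjusted p = 0.0393) and 0.60 ± 0.11 (adjusted p = 0.0227). This last step is the least certain between these groups, since both calls were lost when scaled on the median of all probes (adjusted p = 0.246 and 0.381), and without any 1 of ErbB2 replicates 1, 2 and 3 or Cas replicates 1 and 3 (adjusted p = 0.0573 to 0.172), and that of ILMN_2365465 also without Cas/ErbB2 replicate 1 (0.0502) or control replicate 1, 2 or 3 (0.0652 to 0.0714).

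Whether the rise of XBP1 with both factors went beyond the sum of the single rises was tested as an interaction, Cas/ErbB2 minus ErbB2 minus Cas plus control on the log2 scale. The term was 0.37 (95% interval -0.10 to 0.84, adjusted p = 0.282) and 0.29 (-0.06 to 0.64, adjusted p = 0.265), and neither passed. Scaled on the median of all probes, where the median of all terms was 1.44, they were 2.03 and 1.94 and did.

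HSPA5, also called BiP, the Hsp70 chaperone of the ER lumen that also holds the stress sensors inactive, did not follow the order of XBP1. Its probe ILMN_1773865 read 9.92, 9.90 and 10.22 in Cas/ErbB2 cells and 9.30, 8.86 and 9.53 in ErbB2 cells. It read 8.39, 8.52 and 8.26 in Cas cells, against 9.36, 9.50 and 9.18 in control cells. The Cas values were near background, with detection p of 0.00390 to 0.00649, against 0 on every array of the other groups. Their raw signal was 694 to 823, against 700 to 903 on control arrays. The Cas/ErbB2 arrays were the highest and the Cas arrays the lowest, and the ErbB2 arrays overlapped the control. Against control cells HSPA5 was 1.59-fold higher in Cas/ErbB2 (log2 0.67 ± 0.18, adjusted p = 0.00858; -1.27 and lower when scaled on the median of all probes), while in Cas cells it fell by 0.96 on the log2 scale (SE 0.18, adjusted p = 0.00150). In ErbB2 cells the difference was -0.12 (95% interval -0.50 to 0.26, adjusted p = 0.639).

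HSPA5 was 3.09-fold higher in Cas/ErbB2 than in Cas cells (log2 1.63 ± 0.18, adjusted p = 8.80e-05). Its interaction term was 1.74 ± 0.25 (adjusted p = 5.73e-04), the only one of the 9 member probes that passed, where 15.9% of all probes did, 10.5% higher and 5.32% lower. The term includes the control arrays and was a call under all 22 alternatives, from 1.01 in the authors' processed table to 3.39 when scaled on the median of all probes, where 8 of the 9 member terms passed. On that table the other HSPA5 differences were smaller too, 0.43 for Cas/ErbB2 against control, -0.51 for Cas against control, 0.95 for Cas/ErbB2 against Cas and 0.50 for Cas/ErbB2 against ErbB2, all calls, and 0.45 for ErbB2 against Cas, which did not pass (adjusted p = 0.0626). With the background correction normexp, Cas differed from control by -0.63 and ErbB2 from Cas by 0.55. Cas/ErbB2 exceeded ErbB2 cells by 0.79 ± 0.18 (adjusted p = 0.0380), but the call was lost without any 1 of 10 arrays (0.0505 to 0.134), and kept without ErbB2 replicate 3 or Cas/ErbB2 replicate 3. ErbB2 exceeded Cas cells by 0.84 ± 0.18 (adjusted p = 0.0364), but that call was lost without ErbB2 replicate 1 or 3, any 1 Cas replicate or any 1 control replicate (0.0562 to 0.154).

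**Figure D2:**
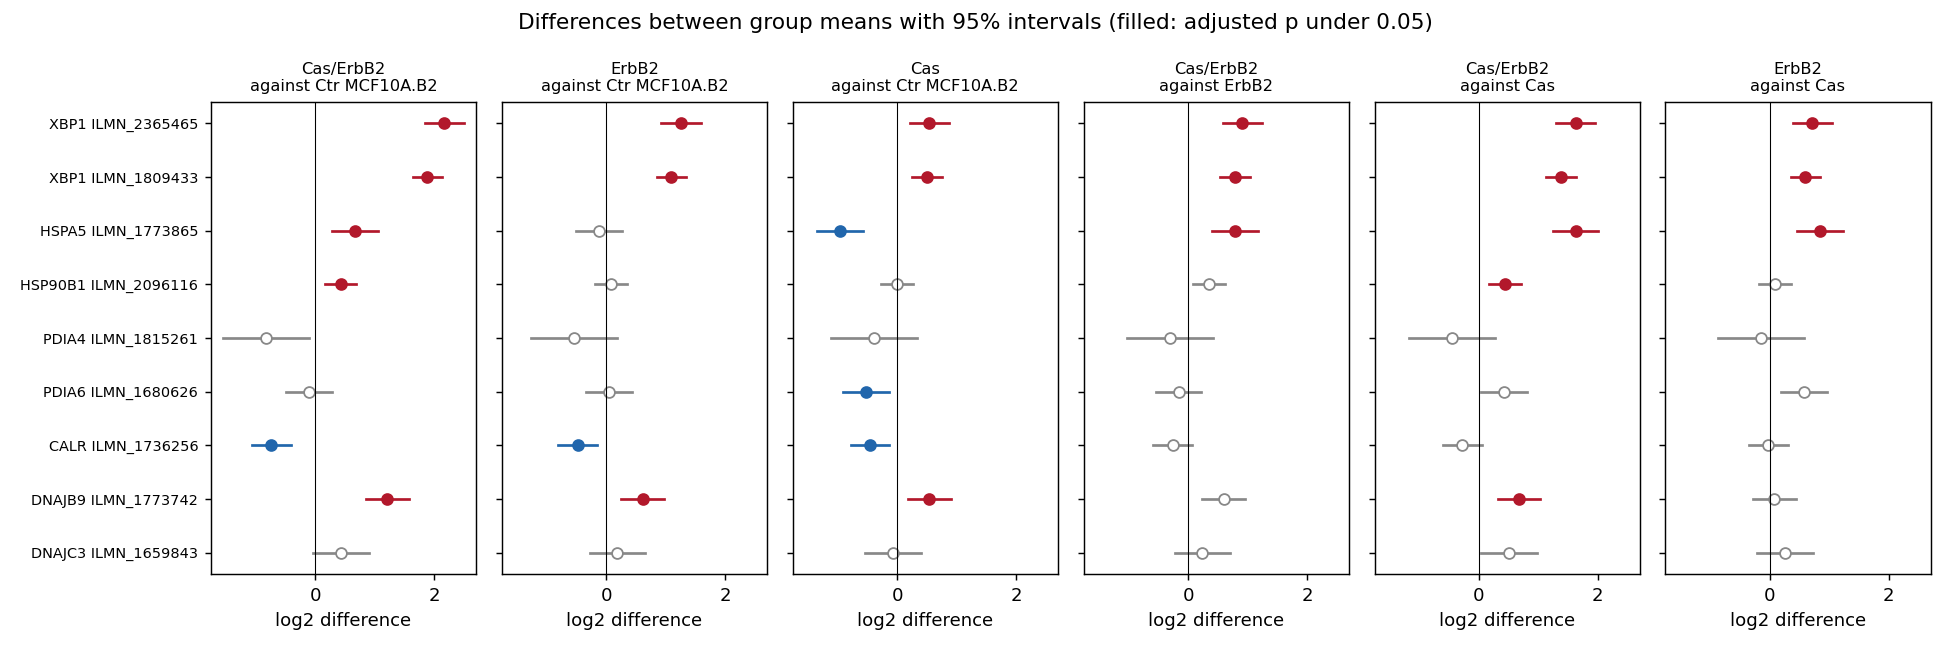
Log2 differences of the 9 tested member probes in 6 comparisons, the first group of each title minus the second, with 95% intervals of the limma fit on quantile normalized values. Filled points have an adjusted p under 0.05 (red higher, blue lower); XBP1 is filled in all 6 panels, HSPA5 is 0.67 in Cas/ErbB2 and -0.96 in Cas against control, and CALR is filled to the left of 0 in all 3 comparisons with control.

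HSP90B1, the Hsp90 of the ER (GRP94), changed little. ILMN_2096116 read 13.35, 13.48 and 13.39 in Cas/ErbB2 cells and 13.11, 12.90 and 13.16 in ErbB2 cells. It read 12.90, 12.91 and 13.11 in Cas cells, against 12.87, 13.04 and 13.03 in control cells. The Cas/ErbB2 arrays lay above the other 9, which overlapped. HSP90B1 was 1.34-fold higher in Cas/ErbB2 than in control cells (log2 0.42 ± 0.12, adjusted p = 0.0145; -1.36 and lower when scaled on the median of all probes), and without control replicate 1 the call was lost (log2 0.37, adjusted p = 0.0540). The difference from Cas cells, 0.43 ± 0.12 (adjusted p = 0.0433), was lost without ErbB2 replicate 1 or 3, Cas replicate 1 or 2, Cas/ErbB2 replicate 1 or 2 or control replicate 2 or 3 (0.0501 to 0.144). The difference from ErbB2 cells, 0.35 (95% interval 0.08 to 0.62), did not pass (adjusted p = 0.171).

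CALR, which encodes the calcium-binding lectin chaperone calreticulin, went the other way. ILMN_1736256 read 11.12, 11.04 and 11.06 in Cas/ErbB2 cells and 11.48, 11.19 and 11.34 in ErbB2 cells. It read 11.52, 11.44 and 11.11 in Cas cells, against 12.00, 11.61 and 11.84 in control cells. All 9 arrays of the other groups were below the lowest control array, and ErbB2 and Cas overlapped each other. In Cas/ErbB2 against control cells CALR fell by 0.74 on the log2 scale (SE 0.15, 1.67-fold, adjusted p = 0.00179), a call with each array left out in turn. ErbB2 and Cas cells differed from control by -0.48 ± 0.15 (adjusted p = 0.0284) and -0.46 ± 0.15 (adjusted p = 0.0361). The ErbB2 call was lost without ErbB2 replicate 2 or 3 or control replicate 1 or 3 (0.0650 to 0.105), and the Cas call without Cas replicate 2 or 3 or control replicate 1 or 3 (0.0560 to 0.140). Cas/ErbB2 differed from ErbB2 cells by -0.26 (95% interval -0.58 to 0.07) and from Cas cells by -0.28 (-0.61 to 0.04), and neither passed.

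DNAJB9 (ERdj4), a J-domain co-chaperone of BiP, was highest in Cas/ErbB2 and lowest in control cells. ILMN_1773742 read 9.62, 10.17 and 9.83 in Cas/ErbB2 cells and 9.10, 9.30 and 9.41 in ErbB2 cells. It read 9.33, 9.11 and 9.16 in Cas cells, against 8.48, 8.87 and 8.63 in control cells. The Cas/ErbB2 arrays lay above all others and the control arrays below all others, with ErbB2 and Cas overlapping between them. DNAJB9 was 2.32-fold higher in Cas/ErbB2 than in control cells (log2 1.21 ± 0.17, adjusted p = 9.94e-05), or 0.72 in the authors' processed table, but -0.67 and lower (adjusted p = 0.0415) when scaled on the median of all probes. ErbB2 and Cas cells exceeded control by 0.61 ± 0.17 (adjusted p = 0.0143) and 0.54 ± 0.17 (adjusted p = 0.0272), with -1.06 and -1.31 on that scale. The ErbB2 difference was 0.33 in the authors' processed table and 0.40 with the background correction normexp, both calls, and the call was lost without ErbB2 replicate 3 or control replicate 1 (0.0543 and 0.0590). The Cas call was lost without Cas replicate 1 or 3 or control replicate 1 or 3 (0.0552 to 0.0991) and with normexp (log2 0.35, adjusted p = 0.0529) or the authors' processed table (log2 0.29, adjusted p = 0.0609). Against Cas cells Cas/ErbB2 cells were higher by 0.67 ± 0.17 (adjusted p = 0.0213; 0.42 in the authors' processed table), which was lost without Cas replicate 2 or 3 or Cas/ErbB2 replicate 2 (0.0678 to 0.0803). Against ErbB2 cells the difference of 0.60 (95% interval 0.24 to 0.96) did not pass (adjusted p = 0.0818).

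DNAJC3 (p58IPK), a co-chaperone of BiP known to restrain PERK, was near background. ILMN_1659843 was detected on 1 of 3 Cas/ErbB2 arrays, 0 ErbB2 arrays, 0 Cas arrays and 2 of 3 control arrays. The Cas/ErbB2 arrays read 7.86, 8.55 and 7.58, against 7.56, 7.67 and 7.46 on control arrays, and the groups overlapped. No fold is given for so few detected arrays. No comparison of DNAJC3 passed, and without Cas/ErbB2 replicate 3 the differences from control (log2 0.64, adjusted p = 0.0205) and from Cas cells (log2 0.71, adjusted p = 0.0359) did.

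Of the oxidoreductases, PDIA6 (P5), a protein disulfide isomerase that also attenuates IRE1, passed the test for Cas against control cells only. ILMN_1680626 read 9.93, 10.06 and 9.33 in Cas/ErbB2 cells and 9.95, 9.81 and 10.04 in ErbB2 cells. It read 9.25, 9.45 and 9.37 in Cas cells, against 9.74, 9.96 and 9.95 in control cells. The Cas arrays were below all ErbB2 and control arrays, and Cas/ErbB2 replicate 3 read as low as they did. In Cas against control cells PDIA6 fell by 0.53 on the log2 scale (SE 0.18, adjusted p = 0.0394; -0.34 on the authors' processed table), a call lost without any 1 Cas or control replicate or ErbB2 replicate 1 (0.0511 to 0.116). Without Cas/ErbB2 replicate 3 the differences of Cas/ErbB2 from Cas (log2 0.64, adjusted p = 0.00681) and of ErbB2 from Cas cells (log2 0.58, adjusted p = 0.0278) passed, as did the interaction (log2 0.59, adjusted p = 0.0390). With all arrays these were 0.42 (adjusted p = 0.170), 0.58 (adjusted p = 0.182) and 0.37 (adjusted p = 0.363).

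PDIA4 (ERp72), another isomerase of the ER, was dim and spread widely. ILMN_1815261 read 7.59, 7.22 and 8.64 in Cas/ErbB2 cells, where only the last was detected. It read 8.48, 8.42 and 7.44 in ErbB2 cells, with the last not detected. It read 8.15, 8.35 and 8.29 in Cas cells, against 8.52, 8.79 and 8.64 in control cells, all detected. The Cas/ErbB2 difference from control was -0.83 (95% interval -1.55 to -0.11, adjusted p = 0.0576) with all arrays. Without Cas/ErbB2 replicate 3 it was -1.24 (adjusted p = 0.00241) and without ErbB2 replicate 3 -0.83 (adjusted p = 0.0333). With all arrays it also passed with trend and robust moderation (adjusted p = 0.0412), with hybridization as a random block (0.0329) and on the authors' processed table (log2 -0.42, adjusted p = 0.0476). That block cannot adjust for hybridization, since only control arrays carry a number, and its estimated correlation was -0.095. In the other comparisons PDIA4 did not pass with quantile normalization of all arrays in 1 fit.

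SEL1L, the membrane adaptor of the HRD1 ubiquitin ligase, was detected on 0 of 12 arrays by ILMN_1726496. Its signal of 6.25 to 6.60 in Cas/ErbB2, 6.28 to 6.44 in ErbB2, 6.37 to 6.42 in Cas and 6.93 to 7.18 in control cells was not well above background. HERPUD1, a membrane protein of the same degradation pathway, was not analysed here.

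Set against all probes, the share of members called was above the background in the comparisons between the non-control groups. For Cas/ErbB2 against ErbB2 cells 3 of 9 probes were higher (XBP1 by both probes and HSPA5) and 0 lower, where 2.71% of all probes were called, 1.21% higher and 1.5% lower. For Cas/ErbB2 against Cas cells 5 were higher and 0 lower, where 10.4% of all probes were called, 4.91% higher and 5.48% lower. For ErbB2 against Cas cells 3 were higher and 0 lower, where 1.38% were called, 0.971% higher and 0.41% lower. The median member difference was 0.35, 0.50 and 0.26 in these comparisons, against -0.02, -0.02 and 0.00 over all probes. Scaled on the median of all probes 0, 3 and 0 members were higher and 0 lower in them. These comparisons share groups, and the members include a pair of probes of 1 gene. The members were also chosen with earlier results of these data known, so a share above the background is no independent result.

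Against control, where many probes moved, the counts were closer to the background. In Cas/ErbB2 cells 5 probes were higher and 1 lower, where 46.4% of all probes were called, 20.6% higher and 25.8% lower. In ErbB2 cells 3 were higher and 1 lower (31.8% of all probes called, 13.6% higher and 18.3% lower), and in Cas cells 3 were higher and 3 lower (30.8% called, 13.1% higher and 17.7% lower). The member medians were 0.43, 0.08 and -0.07, against -0.02, 0.00 and -0.01 over all probes. The 3 comparisons share the control arrays. In Cas/ErbB2 against control the arrays of the groups did not overlap for 6 of 9 members, and for 54% of all probes.

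**Figure D3:**
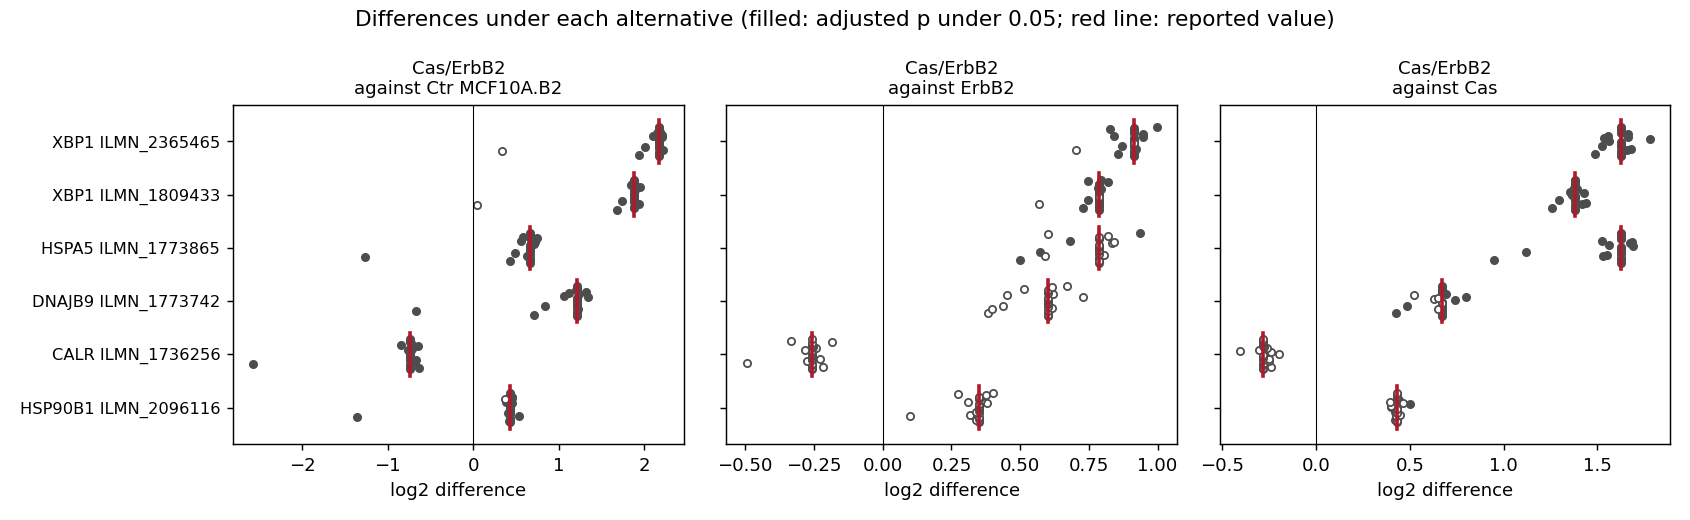
Log2 differences of 6 member probes under each alternative way of processing or array left out (points, filled where the adjusted p was under 0.05) and as reported (red lines), for Cas/ErbB2 against control, ErbB2 and Cas. In the first panel the XBP1 points reach from 0.05 to 2.22, and the points of HSPA5, DNAJB9 and HSP90B1 below 0 are those scaled on the median of all probes; HSPA5 points are all filled above 0 in the last panel and mostly open in the second.

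Other genes of the response and of the secretory pathway were counted by list, with the brightest probe standing for a gene. The lists too were chosen with earlier results of these data known, so their counts are a description. Between Cas/ErbB2 and control cells 17.5% of all genes were higher and 29.5% lower. Of 18 measured folding factors outside the members 9 were higher and 2 lower, with a median difference of 0.33 against -0.10 over all genes. The prolyl isomerase PPIB was 4.20-fold higher (log2 2.07 ± 0.15, adjusted p = 9.90e-07) and the ER oxidase ERO1A, which reoxidizes disulfide isomerases, 2.53-fold higher (log2 1.34, adjusted p = 4.21e-06). On the authors' processed table these differences were smaller, 1.27 and 0.88. Scaled on the median of all probes PPIB differed by 0.30 and ERO1A by -0.59, neither of which passed, and of the folding factors 0 were higher and 15 lower. Every list had at most 1 gene higher on that scale in this comparison. UGGT1, which marks unfolded glycoproteins for a further round of folding, was at least 1.19-fold lower, since its probe was detected on control arrays only. For such a bound, each array without detection was given its lowest detected signal, or the signal of the probe itself where that was higher.

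Of 9 measured genes of the PERK and ATF4 arm 5 were higher and 1 lower (median 0.39), but 1 and 8 when scaled on the median of all probes. The pseudokinase TRIB3 had a mean level of 12.26 ± 0.08 in Cas/ErbB2, 11.39 ± 0.11 in ErbB2, 9.59 ± 0.25 in Cas and 9.20 ± 0.26 in control cells (SD, n = 3), and was 8.33-fold higher in Cas/ErbB2 than in control cells (log2 3.06, adjusted p = 1.73e-07). The stress-induced factor ATF3 was higher by 1.09 (adjusted p = 8.14e-04), or 0.57 on the authors' processed table and 0.72 with normexp, but -0.55 on that scale. The factor DDIT3 (CHOP) fell by 0.67 on the log2 scale (adjusted p = 0.0429; -0.39 on the authors' processed table), a call lost without any 1 of 8 arrays (0.0515 to 0.179).

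Of 14 measured genes of traffic from the ER to the Golgi 4 were higher and 0 lower (median 0.18). The coat subunit genes SEC24D (log2 1.54, adjusted p = 2.22e-05) and SEC24A (log2 1.13, adjusted p = 4.02e-05) and the cargo receptor LMAN1 (log2 0.64, adjusted p = 0.00889) led, with 0.93, 0.67 and 0.38 on the authors' processed table, but -0.33, -0.78 and -1.30 when scaled on the median of all probes. Of 16 measured genes of ER-associated degradation 2 were higher and 6 lower (median -0.35). EDEM3, which trims mannose from misfolded glycoproteins, was higher by 0.92 (adjusted p = 6.17e-04; -1.003 when scaled on the median of all probes), while the membrane channel factor DERL2 differed by -0.82 (adjusted p = 0.00184; -0.52 on the authors' processed table), and its other probe by -0.03 (adjusted p = 0.932). The lectin OS9, which carries misfolded glycoproteins to the ligase, differed by -1.80 (adjusted p = 3.62e-05, detected on 1 of 3 Cas/ErbB2 arrays), and by -0.95 on the authors' processed table.

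Of 15 measured genes of translocation into the ER 0 were higher and 4 lower (median -0.12), among them the translocon subunits SSR2 (log2 -0.68, adjusted p = 0.00440; -0.13 and adjusted p = 0.714 by its other probe) and SEC61A1 (log2 -0.56, adjusted p = 0.00991). The largest difference was that of SSR3 (log2 -0.98, adjusted p = 5.86e-04). Its probe was detected on control arrays only, so SSR3 was at least 1.01-fold lower. The 4 lower of 15 lay near the share of 29.5% over all genes, and without Cas/ErbB2 replicate 3 the counts were 2 higher and 6 lower. Of 7 measured stress sensors and activators 0 were higher and 2 lower (median -0.16), CREB3 and ATF6B, again near the share over all genes. The counts were 1 higher and 0 lower with scaling on probes detected on all 12 arrays, 0 and 7 when scaled on the median of all probes, and 0 and 0 where detection on all 12 arrays was required. CREB3 was detected on control arrays only and has no fold, and ATF6B (log2 -0.80, adjusted p = 0.0134, detected on 1 of 3 Cas/ErbB2 arrays) missed the threshold without Cas/ErbB2 replicate 2 (log2 -0.60, adjusted p = 0.0589) and with scaling on probes detected on all 12 arrays (log2 -0.12, adjusted p = 0.610), and was -0.45 on the authors' processed table. Of 16 cytosolic and mitochondrial chaperones, a contrast to the ER members, 3 were higher and 2 lower, with a median of -0.05. HSPA4 was higher by 0.98 with its brightest probe (adjusted p = 0.00191), but its other probe differed by -1.36 (adjusted p = 3.32e-04). The constitutive Hsp70 gene HSPA8 was higher by 0.59 (adjusted p = 0.00865; -1.35 and lower when scaled on the median of all probes).

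**Figure D4:**
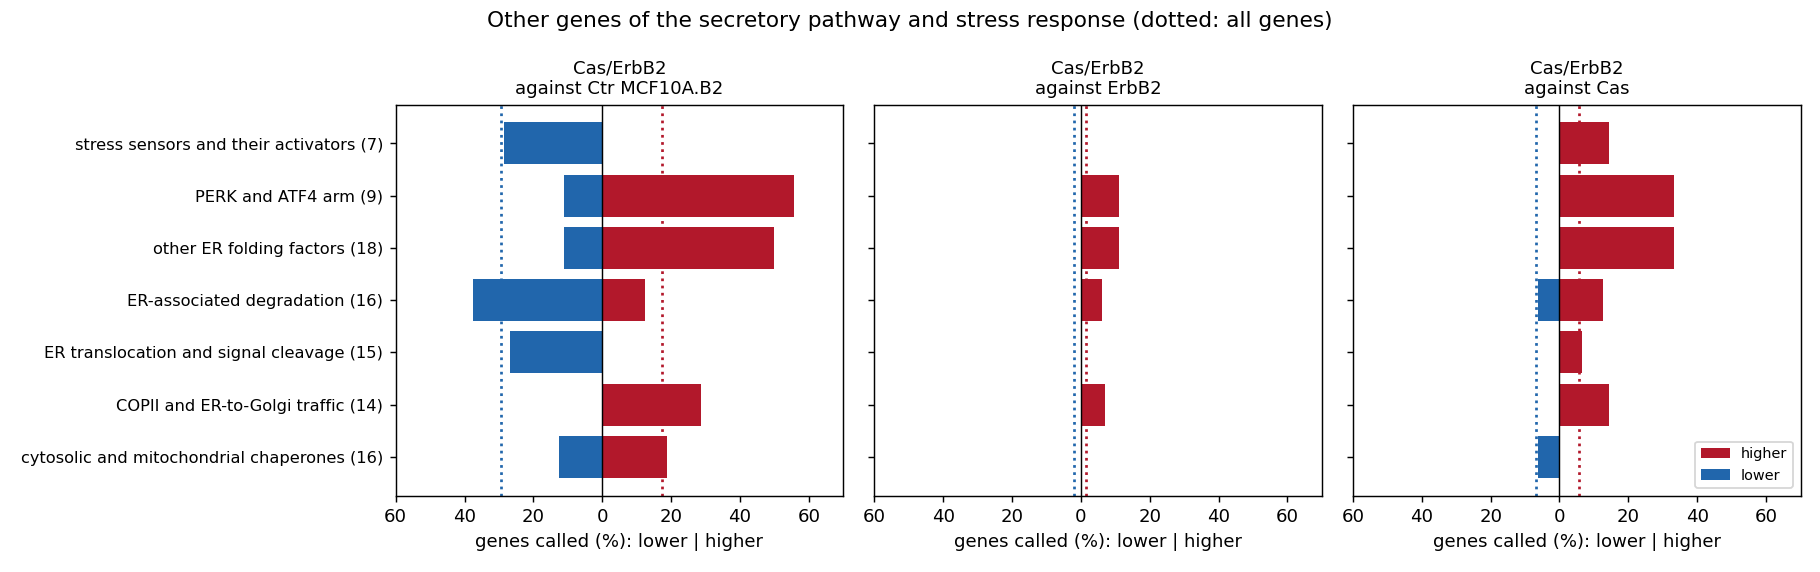
Share of measured genes called higher (red, right of 0) and lower (blue, left of 0) in Cas/ErbB2 cells against control, ErbB2 and Cas, for 7 lists with the number of measured genes in parentheses. Dotted lines mark the share of all genes; against control 9 of 18 folding factors are higher with quantile normalization (0 when scaled on the median of all probes), where 17.5% of all genes are, and against ErbB2 few genes of any list are called.

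In Cas/ErbB2 against Cas cells, where 5.79% of all genes were higher and 6.84% lower, 6 of 18 folding factors and 3 of 9 genes of the PERK and ATF4 arm were higher and 0 lower (medians 0.30 and 0.44, against -0.03 over all genes). Calls kept with each array left out in turn were those of ERO1A (log2 0.96, adjusted p = 2.87e-04), the calcium-binding protein CALU (log2 0.89, adjusted p = 0.00111), PPIB (log2 0.76, adjusted p = 0.00520), SEC24D (log2 1.23, adjusted p = 6.45e-04; 0.77 on the authors' processed table), TRIB3 (log2 2.68, adjusted p = 9.22e-07) and the lectin ERLEC1 (log2 0.63, adjusted p = 0.00737). DDIT3 was at least 2.18-fold higher (adjusted p = 0.00197), being detected on 0 of 3 Cas arrays. On the authors' processed table its log2 difference was 0.75, which is below that bound. Scaled on the median of all probes, of all 7 lists 1 gene was still higher in this comparison, TRIB3 (log2 2.69, adjusted p = 3.85e-05). Without Cas/ErbB2 replicate 3 the PERK and ATF4 arm had 6 genes higher and 0 lower. With all arrays, genes of ER-associated degradation had 2 higher and 1 lower, and cytosolic and mitochondrial chaperones 0 higher and 1 lower. The lower genes were OS9 (log2 -0.91, adjusted p = 0.0175, detected on 1 of 3 Cas/ErbB2 arrays) and HSPE1 (log2 -0.49, adjusted p = 0.0247). Neither was a call when scaled on the median of all probes. Traffic had 2 higher and 0 lower, and translocation and the stress sensors 1 higher and 0 lower each.

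In Cas/ErbB2 against ErbB2 cells, where 1.44% of all genes were higher and 1.95% lower, 5 genes of all 7 lists were higher and 0 lower. They were TRIB3 (log2 0.87, adjusted p = 0.0163), the ER chaperone HYOU1 (log2 0.65, adjusted p = 0.0489), CALU (log2 0.58, adjusted p = 0.0447), ERLEC1 (log2 0.59, adjusted p = 0.0339) and SEC24D (log2 0.79, adjusted p = 0.0354). Each of the 5 missed the threshold without ErbB2 replicate 2 (0.0620 to 0.158), and each did so without at least 1 further array. On the authors' processed table HYOU1 and SEC24D differed by 0.35 and 0.52, and HYOU1 did not pass there. The other probe of HYOU1 differed by -0.06 (adjusted p = 0.950). None of the 5 passed when scaled on the median of all probes. Without ErbB2 replicate 2 the XBP1 differences from ErbB2 cells were still calls.

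The genes most like XBP1 in level over the 12 arrays were the uridine phosphorylase UPP1, CHIC2 and SPESP1, with Pearson's r of 0.990, 0.985 and 0.981 to ILMN_2365465 among 8176 probes compared. Over the 9 arrays without control r was 0.991, 0.975 and 0.965. The mean level of UPP1 was 12.23 in Cas/ErbB2, 11.15 in ErbB2, 10.26 in Cas and 9.43 in control cells, the same order as XBP1. Among the genes most like HSPA5 were the membrane curvature adaptor BAIAP2L1 (r = 0.957, and 0.971 without control) and the adhesion receptor ADGRG2 (0.939 and 0.948). BAIAP2L1 averaged 11.24 in Cas/ErbB2, 10.96 in ErbB2, 10.51 in Cas and 10.98 in control cells. The arrays fall into 4 groups and share normalization, so r describes the group pattern.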

How the data were processed

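Total RNA of 12 samples was hybridized to Illumina bead arrays, grouped by title and replicate number. Per the file headers, the authors deposited a mean bead signal, an intensity that was not normalized, and a detection p-value per probe and array. Which software made them the sources used here do not say. A second deposited table, used as an alternative, holds intensities that the values show to be quantile normalized. The labels name a smaller array design than 47224 probes would need.

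Signals were corrected with neqc (offset 16) of limma 3.58.1 in R 4.3.3, then quantile normalized and logged to base 2 (log2). Probes detected (p under 0.05) on at least 3 arrays were fitted with 4 group means over 12 arrays and empirical Bayes, with Benjamini-Hochberg adjustment within each comparison. The platform annotation names 1 gene for 30111 probes, several for 8 and none for 17105, and current symbols were looked up by gene ID for 30072. Members are named in full, with up to 3 called genes of largest difference per list and comparison, and the 3 genes most like XBP1 and HSPA5, of which 1 is not reported here. The members and lists were chosen with earlier results of these data known. The number of arrays limits the precision. In simulated Cas/ErbB2 against control data (19777 probes, 50 changed per size) the share recovered was 14% for log2 changes of 0.5, 64% for 1, 94% for 2 and 100% for 3, with 8 false among 144 calls. In the data 46.4% of all probes were called in this comparison. The adjusted threshold was then less strict than in the simulation, so these shares do not carry over to it. Alternatives were normexp (offset 50), scaling on a common median (of all probes, or of probes detected on all 12 arrays), the authors' table, other detection filters, 1 probe per gene, trend and robust moderation, the replicate and hybridization blocks, the arrays of a comparison alone and each array left out. Fits of the 9 arrays without control, list counts without Cas/ErbB2 replicate 3 and the second of these medians were added after seeing the data. Motif searches and figures used Python 3.11.15 and matplotlib 3.10.9.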

Additional observations from a re-analysis of the deposited data

Results flagged for a closer look

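The interaction of Cas and ErbB2 for HSPA5 (ILMN_1773865) was 1.74 on the log2 scale, so the difference that went with ErbB2 differed between cells with and without Cas. Cas/ErbB2 cells were 1.63 above Cas cells, while ErbB2 cells differed from control by -0.12. The value of 1.74 is from quantile normalized signals and was 1.01 on the authors' processed table and 3.39 when scaled on the median of all probes. It was the only term of the 9 member probes that passed, where 15.9% of all probes did, 10.5% higher and 5.32% lower. The test of the difference itself gave an adjusted p of 5.73e-04. It rests in part on the control arrays, whose raw signal and hybridization differ from the other 9, and their part in it was not tested. The interaction also rests on the Cas arrays, where HSPA5 was near background.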

How the results depend on the processing

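Of 28 member calls 6 kept call and direction under all alternatives run, which were both XBP1 probes and HSPA5 for Cas/ErbB2 against Cas, HSPA5 for Cas against control and for the interaction, and CALR for Cas/ErbB2 against control. Of 35 member results that did not pass, 13 did so under all. Scaling on the median of all probes, most of them at background, changed the most. Against control it gave -0.37 and -0.52 for XBP1 in ErbB2 and -1.32 and -1.37 in Cas cells. In Cas/ErbB2 cells it gave -1.27 for HSPA5, -1.36 for HSP90B1 and -0.67 for DNAJB9, and in ErbB2 cells -1.45 for HSP90B1, -1.66 for PDIA6 and -1.06 for DNAJB9, with -1.31 for DNAJB9 in Cas cells. For list genes in Cas/ErbB2 against control it gave -0.55 for ATF3, -0.59 for ERO1A, -1.003 for EDEM3, -0.33 for SEC24D, -0.78 for SEC24A, -1.30 for LMAN1, -0.91 for HSPA4, -1.35 for HSPA8 and -1.28 for HSPA1A. Its member counts were 0 for Cas/ErbB2 against ErbB2, 3 for Cas/ErbB2 against Cas, 0 for ErbB2 against Cas and 8 for the interaction. The lower share of all calls against control was then 93.5%, 94.2% and 94.2% for Cas/ErbB2, ErbB2 and Cas, and 3.12% for the interaction. With single arrays left out the number of member calls was 5 to 8 for Cas/ErbB2, 2 to 4 for ErbB2 and 2 to 6 for Cas against control, 2 to 3 for Cas/ErbB2 against ErbB2, 3 to 7 for Cas/ErbB2 against Cas, 0 to 4 for ErbB2 against Cas and 1 to 2 for the interaction. Fitted on 2 groups alone, the counts were 0 for Cas/ErbB2 against ErbB2, 3 for Cas/ErbB2 against Cas and 0 for ErbB2 against Cas. For ErbB2 against Cas the count was also 0 in the 9 arrays without control and 1 with scaling on probes detected on all 12 arrays or without the detection filter, and for the interaction it was 2 without that filter. That scaling shifted the median of all probes in Cas/ErbB2, ErbB2 and Cas against control to 0.27, 0.21 and 0.20. The lower share of all calls was then 28.3%, 27.5% and 24.1%, against 55.7%, 57.3% and 57.5%, and in the interaction 76.5% against 33.5%. DNAJC3, not detected in Cas cells, was 1.46 (adjusted p = 0.00210) for Cas against control under it, where it had been -0.07, and CREB3 for Cas/ErbB2 against control was 0.35, which did not pass, where it had been -1.24. The causes were not tested. Deviations of same-numbered arrays from their group means had r over 0.1 in 8 of 18 pairs, in a range of -0.09 to 0.19. No chance level was worked out for these pairs. In 9 of 18 the first array correlated best with its own number, out of 3 arrays to choose from. This was so for replicate 1 in every pair of groups, but for replicate 2 in none. What the replicate 1 arrays share was not tested, and the main fit did not take the numbers as pairs. With the replicate number as a block the counts were 6, 4 and 5 against control, 2 for Cas/ErbB2 against ErbB2, 5 for Cas/ErbB2 against Cas, 2 for ErbB2 against Cas and 1 for the interaction. Of 21 list counts 17 moved by over 1.5 times. Genes of translocation called for Cas/ErbB2 against control were 8 on the authors' table (2 higher and 6 lower), against 4. In Cas/ErbB2 against ErbB2 the folding factors called were 0 with either scaling or without the filter, against 2. Of 39 list results named for Cas/ErbB2, 7 kept their call under all settings run. Probes near background (DNAJC3, PDIA4, SEL1L) have levels that the signal does not resolve. HSPA5 was near background in Cas cells too, which enters its differences from Cas cells, the Cas difference from control and its interaction.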
